A study of Mus musculus with 6 samples.

Results

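Periostin, the thrombospondins, tenascin-C, SPARC and the spondins are secreted proteins that sit in the matrix around cells. They act on adhesion and signalling more than on strength. Fibronectin, which cells assemble into fibrils, is described with these proteins. Their 10 genes, Postn, Tgfbi, Thbs1, Thbs2, Thbs3, Tnc, Sparc, Spon1, Spon2 and Fn1, were taken by name from a deposited expression table of 54532 rows with 54429 gene names, and all 10 had a row. RNA was sequenced from MC3T3-E1 cells, a clonal pre-osteoblast line from mouse skull bone, after 12 hours with a glucocorticoid (GC) or under normal conditions (control), with 3 libraries in each group. The study's design text calls the replicates biological, and neither the compound, its dose nor a vehicle is named in the labels. Results of 1 cell line at 1 time are described. Adjusted p-values set each difference against the spread between these libraries only, moderated over all tested rows. Levels are FPKM, read counts divided by the length of all annotated exons of a gene and by a scaled depth of each library. Comparisons between genes depend on that length, which may exceed that of the RNA made, and are approximate.

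Matricellular proteins bind collagens, growth factors and cell surface receptors such as integrins, CD47 and syndecans, and many loosen rather than strengthen adhesion. In bone they are made by osteoblasts and their precursors during matrix assembly and repair. Glucocorticoids act through a nuclear receptor that binds DNA and raises some genes and lowers others, and long exposure is known to reduce bone formation.

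The libraries held between 14445341 and 16123917 reads that could be recovered from the FPKM values. The known glucocorticoid-induced genes Tsc22d3, Fkbp5, Per1 and Sgk1 were higher in every GC library than in every control library, by between 1.19 and 2.47 in log2(FPKM + 1). Of 11 pre-osteoblast markers 8 passed the filter, and Alpl, Bglap and Pth1r did not. The sum of this list, in which Col1a1 was highest, was 3141 to 3389 FPKM in GC and 3678 to 3878 FPKM in control, so the groups were apart, and its part in the results was not tested. It was mostly Col1a1, Spp1 and Col1a2, whose means were lower in GC but which did not pass the test for a difference. Ibsp, of the same list, had a higher mean in GC and did not pass that test either. None of 5 endothelial, 5 adipocyte, 5 muscle and 5 epithelial markers passed, Kdr, Plin1, Cidec, Lep, Myod1, Epcam and Krt19 were at 0 throughout, and the sums of these lists lay between 0.0262 and 0.593 FPKM in GC libraries and between 0 and 0.380 FPKM in control libraries. Of 6 macrophage markers 1 passed, Cd14. Their sum, 8.28 to 11.8 FPKM in GC and 8.42 to 9.64 FPKM in control, was mostly Cd14, and Adgre1 was at 0 throughout. Of 5 chondrocyte markers, Sox9 and Col2a1 passed the filter. The sum of the list, mostly Sox9, was 12.7 to 17.3 FPKM in GC and 20.3 to 21.4 FPKM in control. Col2a1 averaged 1.21 FPKM in GC and 3.60 FPKM in control and passed the test for a difference as lower. It differed by -1.05 in log2(FPKM + 1), with an adjusted p of 0.0146 by limma-trend. The part of these markers in the results was not tested. GC replicate 2 stood apart from the other GC libraries on the first principal component, at 4.60, against -29.9 and -17.5 for GC replicates 1 and 3, while the controls lay between 7.56 and 17.6. Values without that library are given for each of the 10 genes, and for related genes as a count of lost calls.

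Of the 10 genes, 7 passed the filter of at least 1 FPKM in at least 3 libraries, which 11729 rows passed. Postn, Thbs1 and Thbs2 rose, Spon2 fell, and Thbs3, Sparc and Fn1 did not pass the test. The test was limma-trend on log2(FPKM + 1), two-sided, with p-values adjusted over all tested rows by Benjamini-Hochberg and a threshold of 0.05. Over all tested rows 1.08% rose and 0.853% fell. The median difference was 0.26 over the 7 genes and -0.01 over all tested rows, on the log2(FPKM + 1) scale. Since the members were chosen with earlier results known, their count is not set against that share with a test. In these bulk samples, fewer cells of a kind and less RNA per cell cannot be told apart.

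**Figure D1:**
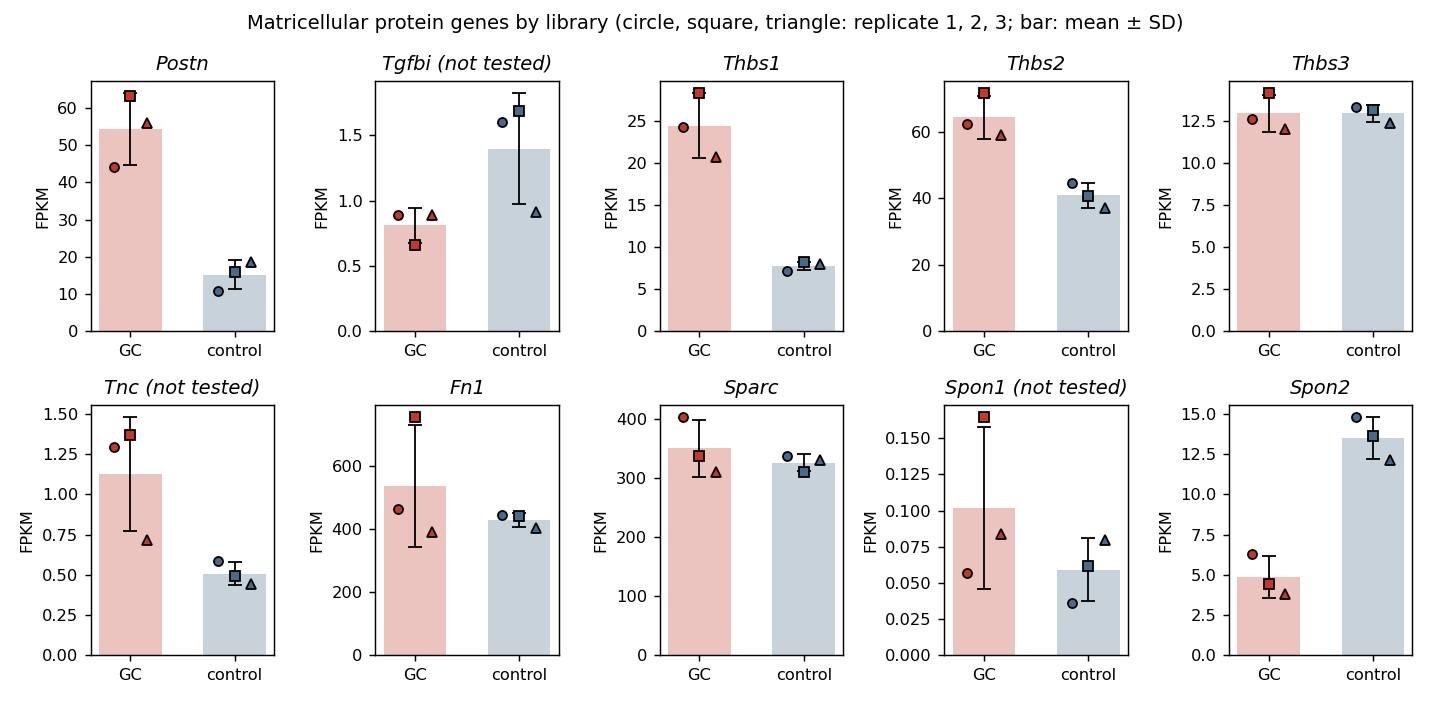
FPKM of each gene by library, GC left and control right in each panel, with bars for the mean and whiskers for the SD of 3 libraries. The GC and control libraries are wholly apart for Postn, Thbs1, Thbs2, Spon2, Tnc and Tgfbi, and overlap for Thbs3, Sparc, Fn1 and Spon1. Of all tested rows, 10.8% had GC wholly above control and 14.7% wholly below. Tnc and Tgfbi are not among the tested rows.

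RefSeq promoters, 250 bases before to 50 after a transcript start in GRCm38.p6, were at hand for 6 of the 10 genes: Postn, Tgfbi, Thbs2, Thbs3, Tnc and Sparc. Those of Postn and Thbs2, both higher in GC, are shown with those of Thbs3 and Sparc, which did not pass the test. They run 5′ to 3′ along the gene, and for Postn a second annotated start is not shown. Postn is on the plus strand at chr3:54360857-54361156, Thbs2 on the minus strand at chr17:14694213-14694512, Thbs3 on the plus strand at chr3:89214930-89215229 and Sparc on the minus strand at chr11:55420031-55420330. Capitals mark matches on either strand to any motif of a set of 14, which included the glucocorticoid receptor half-site AGAACA with its variants AGTACA and AGGACA, the SMAD letters CAGAC, the CACCC and GGGCGG boxes of KLF and Sp factors, the E-box CANNTG, the RUNX letters TGTGGT and the TATA box TATAAA.
Postn: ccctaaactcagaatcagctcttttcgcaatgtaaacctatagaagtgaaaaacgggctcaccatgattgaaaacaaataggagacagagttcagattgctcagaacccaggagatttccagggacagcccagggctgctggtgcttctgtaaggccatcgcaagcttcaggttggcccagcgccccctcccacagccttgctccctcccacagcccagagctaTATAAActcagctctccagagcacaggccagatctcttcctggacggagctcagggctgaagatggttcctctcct
Thbs2: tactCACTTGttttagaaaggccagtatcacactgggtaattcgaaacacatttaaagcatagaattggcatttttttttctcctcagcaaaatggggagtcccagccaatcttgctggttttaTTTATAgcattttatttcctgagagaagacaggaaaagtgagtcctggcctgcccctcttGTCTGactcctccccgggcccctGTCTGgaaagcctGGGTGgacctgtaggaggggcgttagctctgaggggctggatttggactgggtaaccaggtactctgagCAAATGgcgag
Thbs3: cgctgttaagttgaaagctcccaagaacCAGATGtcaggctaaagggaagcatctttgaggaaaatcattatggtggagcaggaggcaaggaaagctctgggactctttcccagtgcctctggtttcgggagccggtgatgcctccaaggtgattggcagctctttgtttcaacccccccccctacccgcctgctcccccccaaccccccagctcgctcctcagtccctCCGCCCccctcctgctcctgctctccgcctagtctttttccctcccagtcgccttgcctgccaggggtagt
Sparc: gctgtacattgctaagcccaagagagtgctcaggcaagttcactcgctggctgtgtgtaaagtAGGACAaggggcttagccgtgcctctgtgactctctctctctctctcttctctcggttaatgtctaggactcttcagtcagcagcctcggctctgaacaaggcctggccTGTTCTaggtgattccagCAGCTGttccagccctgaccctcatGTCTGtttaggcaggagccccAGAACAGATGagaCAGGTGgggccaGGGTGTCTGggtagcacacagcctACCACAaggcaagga

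The Postn window held 1 match, a TATAAA that begins 26 bases before the start, and 13.6% of all 32851 promoters of this length hold those letters on either strand. AGAACA was found in neither the Postn, the Thbs2 nor the Thbs3 window. The Sparc window held it at 78 and at 14 bases before the start, on opposite strands, and AGGACA at 187 bases before it. AGAACA occurs in 19.0% of promoters and AGGACA in 20.1%. The Sparc match at 14 bases shares letters with an E-box at 10 bases before the start, and this window also held other E-boxes and, on the other strand, the SMAD, KLF and RUNX letters, of which a SMAD and a KLF match share a base. The Thbs2 window held CAGAC, read on the other strand, at 66 and 43 bases before the start, letters found in 49.6% of promoters. Its other matches were a reversed TATAAA at 126 bases, a reversed CACCC at 30 bases, in 57.5% of promoters, and 2 E-boxes, which 72.3% of promoters hold. Thbs3 had an E-box 222 bases and a reversed GGGCGG, in 35.7% of promoters, 21 bases before the start. The remaining motifs of the set were AP-1 TGANTCA (in 7.81% of promoters), TEAD GGAATG (14.7%), the CRE half-site TGACG (20.8%), EGR GCGGGGGCG (2.91%) and the SMAD palindrome GTCTAGAC (0.213%). AGTACA is held by 8.86% and TGTGGT by 16.8%. A match says only that the letters are present.

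Postn encodes periostin, a protein of periosteum and other collagen-rich tissue that binds collagen, fibronectin, tenascin-C and integrins. It is made of FAS1 domains, which it shares with the product of Tgfbi. Postn (ENSMUSG00000027750.16, chromosome 3, 54361109 to 54391037, plus strand, mm10) stood at 44.1, 63.3 and 55.9 FPKM in GC replicates 1 to 3, against 10.9, 16.05 and 18.5 FPKM in control replicates 1 to 3. Every GC library lay above every control library, with 44.1 FPKM as the lowest GC value against 18.5 FPKM as the highest control value. The means were 54.4 ± 9.66 FPKM in GC and 15.2 ± 3.89 FPKM in control (SD, n = 3 each), a ratio of 3.59. Behind these values stood 6519 to 9318 reads in GC and 1523 to 2534 reads in control.

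The difference in Postn was 1.79 ± 0.21 (SE) on the log2(FPKM + 1) scale, with a 95% interval of 1.31 to 2.28 and an adjusted p of 0.0136 by limma-trend. It was the 7th highest of all 11729 tested rows. Within libraries of the same replicate number, GC exceeded control by 1.92, 1.91 and 1.54 for numbers 1, 2 and 3. Without GC replicate 2 the difference was 1.68 and still passed. Without GC replicate 3 it was 1.77 with an adjusted p of 0.0939, and it missed the threshold with no filter on low values, where the adjusted p was 0.0829.

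Tgfbi, the other FAS1-domain gene, encodes a matrix protein named for its induction by TGF-beta in a human lung line, and it binds integrins through an RGD sequence. It was a low-level gene here and did not pass the filter. Tgfbi (chromosome 13, 56609523 to 56639562, plus strand) had 0.890, 0.658 and 0.892 FPKM in GC and 1.60, 1.69 and 0.911 FPKM in control, on 42 to 100 reads. All GC values were below all control values, but GC replicate 3 and control replicate 3 differed by only 0.01 on the log2(FPKM + 1) scale. The exact two-sided permutation test gave p = 0.1, the smallest that 3 against 3 libraries allow. The difference in log2(FPKM + 1) was -0.39, and -0.33 without GC replicate 2, and with a pseudocount of 0.1 it was -0.68. In the fit with no filter the adjusted p was 0.481 by limma-trend. Per unit length, Postn exceeded Tgfbi by 49.6- to 96.1-fold in GC and by 6.80- to 20.3-fold in control.

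The thrombospondins bind calcium, and thrombospondin-1 also binds CD47, CD36, integrins and proteoglycans. Thrombospondin-1 and thrombospondin-2, which form trimers, inhibit blood vessel growth, and thrombospondin-1 can release TGF-beta from its latent complex. Thbs1 (ENSMUSG00000040152.8, chromosome 2, 118111876 to 118127133, plus strand) had 24.4, 28.4 and 20.7 FPKM in GC replicates 1 to 3, against 7.23, 8.19 and 7.96 FPKM in control replicates 1 to 3. The controls were close together and every GC library lay far above them. The means were 24.5 ± 3.84 FPKM in GC and 7.79 ± 0.499 FPKM in control, a ratio of 3.14 on 706 to 2917 reads a library.

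Thbs1 rose by 1.53 ± 0.13 (SE; 95% interval 1.23 to 1.82) on the log2(FPKM + 1) scale, with an adjusted p of 0.00289 by limma-trend, the lowest of the 7 tested members. It passed under every alternative run, with adjusted p-values between 0.000297 and 0.0322 by the same kind of fit or limma-voom. Without GC replicate 2 the difference was 1.42. An annotated lincRNA on the opposite strand, Gm29233, overlaps 3.42% of its exon length and was listed at 0 in all libraries.

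Thbs2, whose product is known in mouse marrow stroma and in collagen fibril assembly, is the most abundant thrombospondin gene here. Thbs2 (ENSMUSG00000023885.9, chromosome 17, 14665500 to 14694235, minus strand) had 62.4, 71.8 and 59.3 FPKM in GC and 44.7, 40.9 and 37.2 FPKM in control. The groups were apart, with 59.3 FPKM as the lowest GC value against 44.7 FPKM as the highest control value. It rose by 0.64 ± 0.12 (SE; 95% interval 0.36 to 0.93) on the log2(FPKM + 1) scale, a ratio of means of 1.58 (GC 64.5 ± 6.54 FPKM, control 40.9 ± 3.76 FPKM). Its adjusted p of 0.0471 by limma-trend was near the threshold.

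The Thbs2 call ended without GC replicate 1 (0.0729), GC replicate 3 (0.134), control replicate 1 (0.122), control replicate 2 (0.217) and control replicate 3 (0.193), by limma-trend adjusted p, and under quantile normalization (0.0668), rescaling to equal sums (0.0841) and no filter (0.162). With the replicate number as a block the adjusted p was 0.0157, and without GC replicate 2 the difference was 0.56 and passed.

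Thbs3, which encodes a pentamer-forming thrombospondin found in mouse skeletal tissue, did not pass the test. It had 12.6, 14.15 and 12.0 FPKM in GC and 13.3, 13.15 and 12.4 FPKM in control, so the groups overlapped. The difference was 0.00 ± 0.10 (SE) on the log2(FPKM + 1) scale, with a 95% interval of -0.23 to 0.23 and an adjusted p of 0.989 by limma-trend. Without GC replicate 2 it was -0.07. The sign of so small a value turned under several alternatives, between -0.07 and 0.04. Exons of Mtx1 on the opposite strand, at 11.6 to 15.4 FPKM, cover 6.59% of its exon length, so part of the reads of Thbs3 (chromosome 3, 89215180 to 89226837, plus strand) is uncertain.

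The shares of the thrombospondin genes in their summed RNA were apart between the groups. Of the summed FPKM of these 3 genes, Thbs1 made up 24.5%, 24.8% and 22.5% in GC replicates 1 to 3, against 11.1%, 13.2% and 13.8% in control replicates 1 to 3. Thbs3 made up 12.7%, 12.4% and 13.1% in GC and 20.4%, 21.1% and 21.5% in control. Thbs2 stayed the largest share, 62.8% to 64.4% in GC and 64.7% to 68.5% in control. The ratio of Thbs1 to Thbs3 was 1.72 to 2.01 in GC and 0.543 to 0.644 in control, so Thbs1 was the higher of the pair in each GC library and the lower in each control library. The ratio of Thbs1 to Thbs2 was 0.350 to 0.395 in GC and 0.162 to 0.214 in control. For each of these ratios, and for Thbs2 to Thbs3, the exact two-sided permutation test gave p = 0.1, the smallest that this design allows. The ratios were chosen after the values were seen. Their separation and that of the shares follow from the differences of the 3 genes given above and are no further result.

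**Figure D2:**
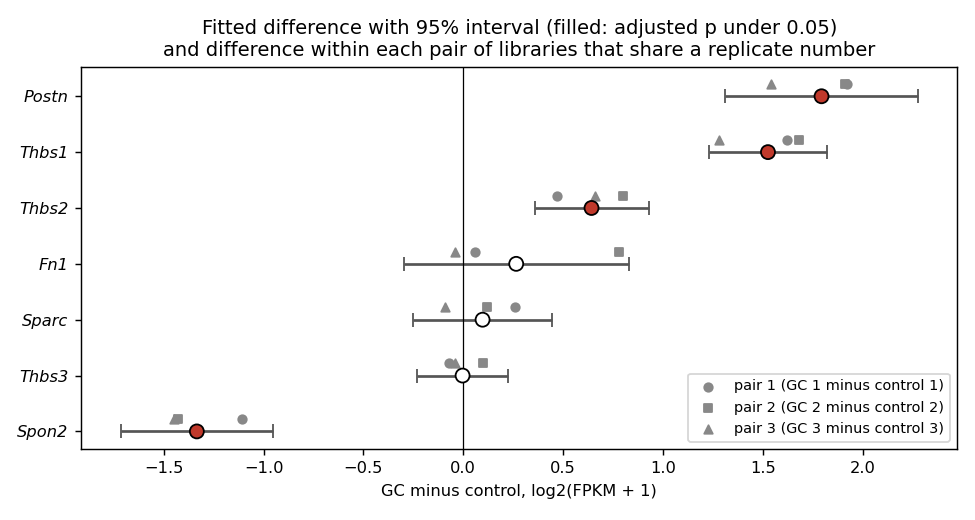
Difference of GC minus control in log2(FPKM + 1) for the 7 tested genes, with the fitted value and its 95% interval, and in grey the difference within each pair of libraries that share a replicate number. Postn, Thbs1 and Thbs2 lie wholly above 0 and Spon2 wholly below, while for Fn1 pair 2 lies at 0.78 and the other pairs near 0.

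Tnc encodes tenascin-C, a large protein that weakens adhesion to fibronectin and is expressed where tissue is remodelled. Its RNA was scarce and it did not pass the filter. Tnc (chromosome 4, 63959785 to 64047015, minus strand) had 1.30, 1.37 and 0.716 FPKM in GC and 0.584, 0.492 and 0.442 FPKM in control, on 96 to 180 reads in GC and 54 to 73 reads in control. All GC libraries lay above all control libraries, and GC replicate 3 was the lowest of its group. The exact two-sided permutation test gave p = 0.1, the smallest possible. With no filter, Tnc had a difference of 0.48 ± 0.16 (SE) on the log2(FPKM + 1) scale and an adjusted p of 0.360 by limma-trend, so no difference was established. The ratio of means was 2.23, and the difference was 0.98 with a pseudocount of 0.1 and 0.40 without GC replicate 2.

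Fn1 and Sparc were the most abundant members. Fn1 encodes fibronectin, which cells assemble into fibrils through integrins and which periostin and tenascin-C bind. Fn1 (ENSMUSG00000026193.15, chromosome 1, 71585520 to 71653200, minus strand) had 463, 758 and 391.5 FPKM in GC replicates 1 to 3, against 444, 442 and 403 FPKM in control replicates 1 to 3. The controls were close together and GC replicate 2 stood far above all other libraries, while GC replicate 3 was below all controls. The means were 538 ± 194 FPKM in GC and 429.8 ± 23.1 FPKM in control, a difference of 0.26 ± 0.24 (SE) on the log2(FPKM + 1) scale with an adjusted p of 0.614 by limma-trend. Without GC replicate 2 the difference was -0.01.

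Fn1 reads were 0.985% of the recovered reads in GC replicate 2, against 0.570% and 0.513% in GC replicates 1 and 3 and 0.513% to 0.555% in control libraries. Libraries also differed by exon length. Among the tested rows with the longest exons, 7342 bases or more, where Fn1 with 11685 bases belongs, the median distance of a library from the 6-library mean was -0.20, 0.09 and -0.09 in GC replicates 1 to 3 and 0.04 to 0.11 in control libraries. Fn1 itself deviated by -0.02, 0.69 and -0.27 in GC and by -0.08, -0.09 and -0.22 in control, all in log2(FPKM + 1). With a correction on exon length the difference was 0.42 and the adjusted p 0.260 by limma-trend. An antisense gene, Apol7d, at no more than 0.282 FPKM, overlaps 2.5% of its exon length.

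Sparc encodes osteonectin, a calcium- and collagen-binding protein that is among the main non-collagen proteins of bone. It had 403, 337 and 309.5 FPKM in GC and 337, 309 and 329.5 FPKM in control. The groups overlapped, and GC replicate 1 alone stood above the controls. Sparc (ENSMUSG00000018593.13, chromosome 11, 55394500 to 55423183, minus strand) differed by 0.10 ± 0.15 (SE) on the log2(FPKM + 1) scale, with a 95% interval of -0.25 to 0.45 and an adjusted p of 0.792 by limma-trend. Without GC replicate 1 the difference was -0.01, and without GC replicate 2 it was 0.12.

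The spondins share a spondin domain and carry thrombospondin repeats. Spon2 encodes mindin, an integrin ligand known from innate immunity in mouse. Spon2 (ENSMUSG00000037379.7, chromosome 5, 33198184 to 33218455, minus strand) had 6.29, 4.41 and 3.80 FPKM in GC replicates 1 to 3, against 14.8, 13.6 and 12.1 FPKM in control replicates 1 to 3. Every GC library lay below every control library. The means were 4.83 ± 1.30 FPKM in GC and 13.5 ± 1.33 FPKM in control, a ratio of 0.358, on 193 to 315 reads in GC and 563 to 701 reads in control.

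Spon2 fell by 1.33 on the log2(FPKM + 1) scale, with an SE of 0.16 and a 95% interval of -1.71 to -0.95. The adjusted p was 0.0146 by limma-trend, and only 15 tested rows had a lower value. The adjusted p passed the threshold no longer without GC replicate 3 (0.0898), control replicate 1 (0.0563) or control replicate 2 (0.0579), or with no filter (0.0911), and without GC replicate 2 the difference was -1.29 and passed. Spon1, which encodes F-spondin, a protein first known from the floor plate of the spinal cord, was near the limit of detection. It had 0.0567, 0.165 and 0.0838 FPKM in GC and 0.0359, 0.0613 and 0.0796 FPKM in control, on 6 to 29 reads. The groups overlapped, and no difference was detectable at this depth. The difference in log2(FPKM + 1) was 0.06, and 0.02 without GC replicate 2.

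The order of the levels changed in the middle of the family. In GC it ran Fn1, Sparc, Thbs2, Postn, Thbs1, Thbs3, Spon2, Tnc, Tgfbi and Spon1 from high to low, and the ranges of neighbours overlapped for Fn1 and Sparc, for Thbs2 and Postn, and for Tnc and Tgfbi. In control it ran Fn1, Sparc, Thbs2, Postn, Spon2, Thbs3, Thbs1, Tgfbi, Tnc and Spon1, and the ranges overlapped for Postn with Spon2 and for Spon2 with Thbs3. The ratio of Postn to Spon2 was 7.01, 14.3 and 14.7 in GC replicates 1 to 3, against 0.736, 1.18 and 1.52 in control replicates 1 to 3. It sets the member with the largest rise against the only member called lower, so its separation follows from those calls. Over all 6 libraries the mean level of Fn1 exceeded that of 99.5% of tested rows, Sparc 99.1%, Thbs2 92%, Postn 86.9%, Thbs1 70.8%, Thbs3 64.6% and Spon2 53.8%. The summed FPKM of the 10 genes was 1019, 1279 and 854 in GC and 874, 846 and 822 in control, and Fn1 and Sparc made up most of it.

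**Figure D3:**
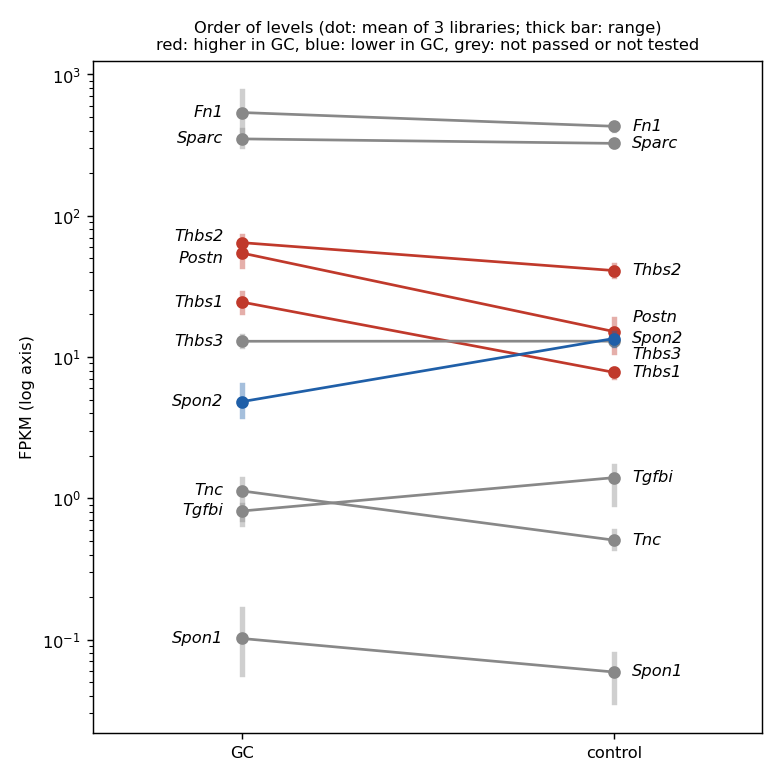
Mean FPKM of each gene on a log axis, GC left and control right, with the range of the 3 libraries as a thick bar. Thbs1 lies above Thbs3 in GC and below it in control, and Spon2 lies below Thbs3 in GC and close to it in control.

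The tested rows whose 6 values lay nearest to those of each called member were sought by the root mean square distance in log2(FPKM + 1) after subtraction of the control mean, over 6 libraries, as a description. For Spon2 they were the water channel gene Aqp1 at a distance of 0.043, the acid-sensing channel gene Asic1 at 0.048 and the annexin gene Anxa8 at 0.12, with differences of -1.34, -1.33 and -1.24. For Thbs2 they were Tox, a nuclear HMG-box protein gene, at 0.053, the lymphatic growth factor gene Vegfd at 0.056 and the kinase gene Nuak1 at 0.057. For Thbs1 they were the potassium channel gene Kcnj15 at 0.113, the zinc finger gene Jazf1 at 0.133 and Ceacam10 at 0.143. Kcnj15 averaged 2.37 FPKM in GC and 0.214 FPKM in control, and Ceacam10 2.22 FPKM in GC and 0 in control. Both passed the filter only through their GC values. With the pseudocount of 1, nearness on this scale does not mean a similar ratio for such low genes. For Postn they included Jazf1 at 0.285 and the small heat shock protein gene Hspb7 at 0.301.

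Related genes were read from 4 lists, and over all tested rows 1.08% rose and 0.853% fell. Of 32 other matricellular genes 19 were tested. Of these 4 rose, 15 did not pass and none fell, and the median difference was 0.14. A block for the replicate number gave 8 that rose and none that fell. The 4 that rose were Ctgf and Cyr61, CCN family genes, Mgp, the matrix Gla protein gene, an inhibitor of calcification, and Fbln5, which takes part in elastic fibre assembly. Ctgf had 73.9, 45.7 and 41.1 FPKM in GC and 12.9, 11.6 and 10.3 FPKM in control, and Mgp had 171.5, 123.5 and 187 FPKM in GC and 86.4, 71.5 and 61.3 FPKM in control. Cyr61 differed by 0.93 and Fbln5 by 0.70 on the log2(FPKM + 1) scale. The most abundant of the list, Spp1, the osteopontin gene, averaged 1126 ± 175 FPKM in GC and 1216 ± 107 FPKM in control without passing, and Ecm1 266 ± 42.6 FPKM in GC and 184 ± 4.52 FPKM in control, with adjusted p-values of 0.126 and, with the block, 0.0482 by limma-trend.

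Of 29 genes on the list of receptors 18 were tested. Of these 2 fell, 16 did not pass and none rose, and the median was 0.07. With the block 1 rose and 2 fell. Itgb3, whose product pairs with integrin alpha-V in a receptor of periostin, osteopontin and other RGD proteins, had 4.55, 3.995 and 2.81 FPKM in GC and 10.6, 9.52 and 8.47 FPKM in control. It fell by 1.15 on the log2(FPKM + 1) scale (adjusted p = 0.0200 by limma-trend), with the groups wholly apart. Itga6, of laminin receptors, averaged 1.03 ± 0.218 FPKM in GC and 2.54 ± 0.136 FPKM in control and fell by 0.81 on the log2(FPKM + 1) scale, or by 1.24 with a pseudocount of 0.1 and by 1.32 in limma-voom on recovered reads. The most abundant genes of this list were Itgb1, the shared integrin beta chain, and Calr, calreticulin. Itgb1 averaged 247.5 ± 11.4 FPKM in GC and 237 ± 3.47 FPKM in control. Calr averaged 218 ± 19.0 FPKM in GC and 189 ± 8.11 FPKM in control, and neither passed.

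Of 25 genes of the TGF-beta axis 21 were tested. Of these 2 rose, 19 did not pass and none fell, and the median was -0.14. With the block 2 rose and 2 fell. Among those that rose, Ltbp1, which encodes a protein that anchors latent TGF-beta in the matrix, had 67.7, 69.5 and 61.2 FPKM in GC and 40.1, 36.3 and 36.1 FPKM in control. Its GC libraries lay wholly above its control libraries, and it rose by 0.80 on the log2(FPKM + 1) scale. The abundant Bgn and Ltbp3 did not pass, with differences of -0.07 and -0.19.

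Of 22 matrix partners, collagens and matrix enzymes among them, 21 were tested. Of these 2 rose, 19 did not pass and none fell, the median was -0.03, and the block left these counts as they were. The 2 were the collagenase gene Mmp13, with 2.77, 4.24 and 3.99 FPKM in GC and 0.745, 0.334 and 0.714 FPKM in control, and Adamts1, a protease with thrombospondin repeats, with 12.0, 18.7 and 14.3 FPKM in GC and 4.73, 5.85 and 5.997 FPKM in control. Mmp13 was under 1 FPKM in every control library, so it passed the filter only through its GC values. Col1a1 and Col1a2, which encode the main collagen of bone and a partner of several of these proteins, were lower in each GC library than in each control library, and did not pass (adjusted p = 0.381 and 0.543 by limma-trend). Of all tested rows, 10.8% had every GC library above every control library and 14.7% every GC library below. With the block 3.99% of all tested rows rose and 5.0% fell, and the same 4 of the 10 members passed. Of the 10 related genes that passed, 9 lost the call without GC replicate 3, 7 without control replicate 1, 8 without control replicate 2, 8 without control replicate 3, 2 without GC replicate 1 and none without GC replicate 2, and none changed sign.

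**Figure D4:**
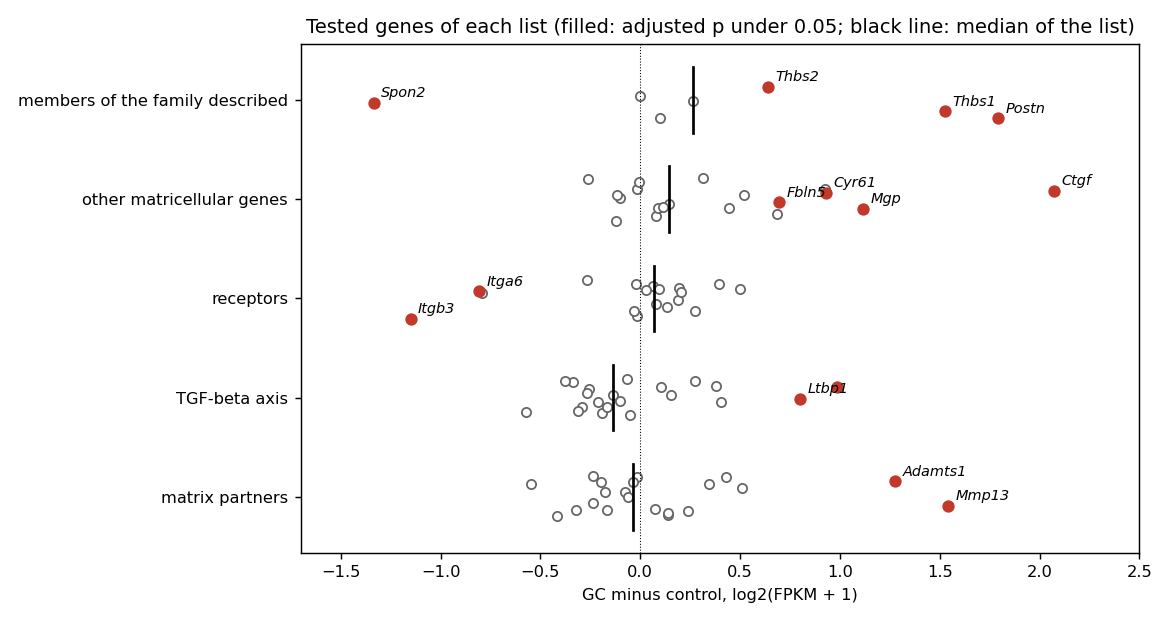
GC minus control in log2(FPKM + 1) for each tested gene of the family and of 4 lists of related genes, filled where the adjusted p was under 0.05, with the median of each list as a black line. Most genes of each related list lie near 0, with named genes such as Ctgf, Mgp, Mmp13 and Adamts1 to the right and Itgb3 and Itga6 to the left.

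**Figure D5:**
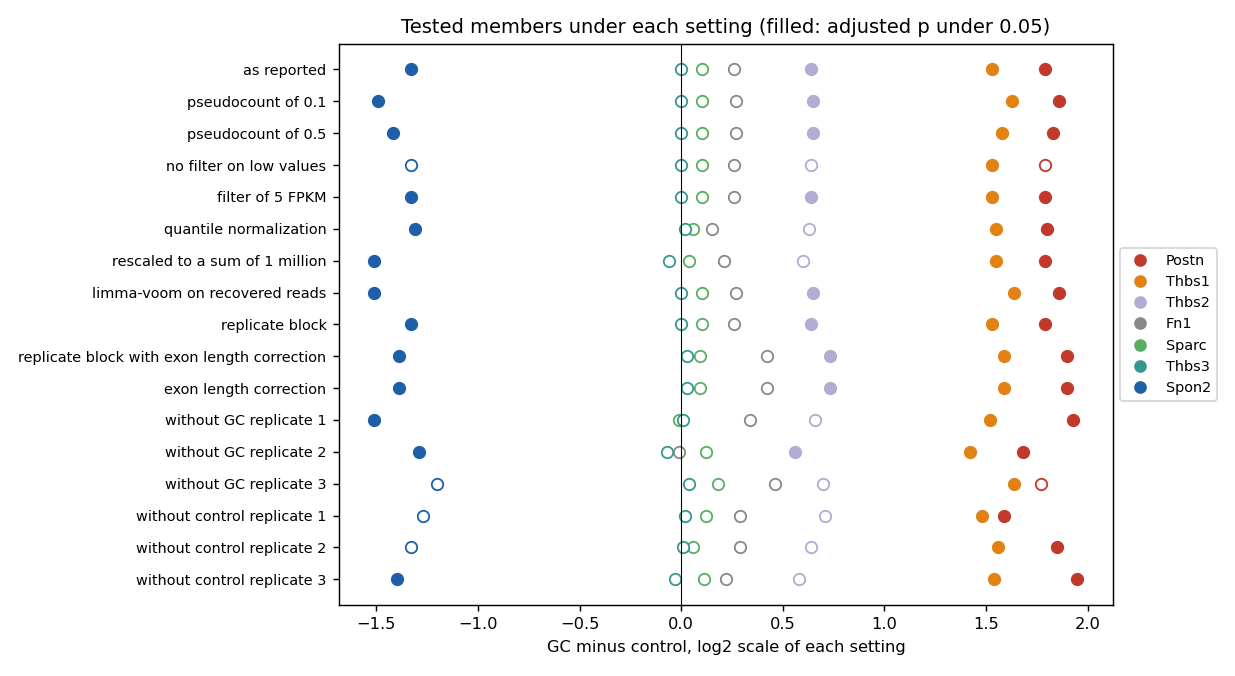
Difference of GC minus control for the 7 tested genes under each processing alternative, filled where the adjusted p was under 0.05. The order of the genes' values is similar throughout, Thbs1 passes in every line, Postn loses the call in 2 and Thbs2 and Spon2 in several, while Fn1 lies at -0.01 without GC replicate 2.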

How the data were processed

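RNA of 3 GC and 3 control samples of MC3T3-E1 cells was sequenced from NEBNext libraries of fragmented mRNA, per the labels' protocols. The submitters' processing notes list HISAT2, HTSeq, DESeq2 and mm10; their versions, the annotation and the strand setting are not known here. The table deposited by the authors holds FPKM values, a unit found from the values since the header names none. Multiplied by GENCODE M21 exon length and 1 depth per library, 96.7% of 26444 rows were whole within 0.0001 in all libraries. These depths lie within 0.0213% of factors by the median-of-ratios method, so the values carry a scaling between libraries. Of 203 rows sharing a name, the highest kept it. The test was limma-trend (limma 3.58.1, R 4.3.3) on log2(FPKM + 1), with robust empirical Bayes and Benjamini-Hochberg adjustment over 11729 rows, checked on simulated data. The simulated libraries were independent, without an effect shared by replicate number or a trend with exon length, so the check does not cover these. The pseudocount of 1 understates changes of low genes. Intervals cover the spread between libraries.

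Deviations from group means correlated by 0.511, 0.248 and 0.383 between libraries of the same number, so blocked values are given where they change a call or a count; the labels do not say what the numbers share. The members and lists were chosen with earlier results of these data known. Named related genes were up to 6 per list past the threshold and the 2 most abundant; some items under these rules are not reported here. Alternatives were other pseudocounts, filters and scalings, limma-voom on recovered reads, a loess correction on exon length, the block, and each library left out.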

Additional observations from a re-analysis of the deposited data

How the results depend on the processing

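Over all tested rows, 127 rose and 100 fell. These counts were 15 and 2 with no filter on low values, 217 and 163 under quantile normalization, 218 and 177 with the exon length correction, 468 and 586 with the replicate number as a block, and 737 and 808 with the block and the length correction together; limma-voom on recovered reads gave 180 falls. Leaving out 1 library gave 14 to 465 rises and 2 to 762 falls, and every library moved both counts by over 1.5 times: 63 and 50 without GC replicate 1, 465 and 762 without GC replicate 2, 14 and 2 without GC replicate 3, and 30 and 7, 25 and 8, and 21 and 8 without control replicates 1, 2 and 3. Of the 10 members, 3 rose and 1 fell. These were 1 and 0 with no filter, and 1 to 3 and 0 to 1 when 1 library was left out. A fit without 1 library holds fewer samples, and the fit with no filter adjusts over more rows; the cause of the other changes was not tested.

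Thbs3 changed sign to 0.02 under quantile normalization and to 0.03 with the length correction, with and without the replicate block, and ranged from -0.07 to 0.04 when 1 library was left out. Itgb1 was -0.01 under quantile normalization. When 1 library was left out, Fn1 ranged from -0.01 to 0.46, Sparc from -0.01 to 0.18 and Bgn from -0.13 to 0.05. None of these passed the test in any setting. The replicate block ended no call among the members. Of the related genes, all 10 lost the call with no filter, Itga6 and Mmp13 were below the filter of 5 FPKM, and Ctgf and Cyr61 had no matched exon length for the length correction or limma-voom, which also lacked Ltbp1. A pseudocount of 0.1 in place of 1 moved Tgfbi to -0.68, Tnc to 0.98, Spon1 to 0.32, Itga6 to -1.24 and Mmp13 to 2.47, against -0.39, 0.48, 0.06, -0.81 and 1.54; limma-voom gave -1.32 for Itga6 and 2.65 for Mmp13. Tgfbi, Tnc and Spon1 rest on few reads, at most 180 a library, which limits what could be seen.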
